A study of Mus musculus with 50 samples.

Results

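Potassium channel subunits were followed in synaptosomal RNA of mouse frontal cortex, a preparation of pinched-off nerve endings obtained by homogenizing the tissue. The genes were taken as every array symbol that starts with Kcn, continues in letters and ends in a number, with 1 probe per gene, the one with the highest mean signal over the arrays. Of 78 such symbols, represented by 117 of the 25697 probes, 64 had a signal above background on at least 1 of 50 arrays and are described here. The other 14 were at background throughout, namely Kcnd1, Kcnd3, Kcne2, Kcne4, Kcng1, Kcnh6, Kcnip4, Kcnj5, Kcnj8, Kcnj15, Kcnk7, Kcnmb2, Kcnn4 and Kcnq5, although another probe of Kcnj15 was above background on 2 arrays.

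Potassium channels let potassium leave the cell down its gradient and so hold the resting potential and end action potentials. Voltage-gated (Kv) channels open on depolarization, inward rectifiers (Kir) and tandem-pore (K2P) channels act near rest, and calcium-activated channels open as calcium enters. Modifier subunits form no pore but bind pore-forming subunits and change their gating or their transport to the membrane. In nerve terminals these channels limit how long the membrane stays depolarized and how much transmitter is released.

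The mice were wild type or lacked Sod2, which encodes the mitochondrial manganese superoxide dismutase, through a constitutive knockout, all on the CD1 background and aged 17 to 21 days. There were 10 knockouts given the low dose (1 mg/kg) and 10 given the high dose (30 mg/kg) of a salen manganese antioxidant, which the titles name EUK8 and the treatment field EUK189. Wild types were 9 untreated, 11 low-dose and 10 high-dose mice, and no untreated knockout was among the samples. Each array held RNA of 1 mouse on an Illumina bead chip, and the 7 chips mixed groups, except that 1 chip held no knockout.

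Arrays had 10183 to 12549 probes above background and median signals of 54.12 to 78.02. The median number of probes above background was 11066.5 in low-dose and 11267 in high-dose knockouts. In wild types it was 11114 at the low dose, 11671 at the high dose and 11599 untreated. The Sod2 probe stood at a normalized log2 level of 9.65, 10.19 and 10.63 (lowest, median, highest) in low-dose knockouts and 9.5, 9.81 and 10.16 in low-dose wild types. It rose by 0.41 ± 0.0954 (log2, SE; adjusted p = 0.00119 in limma), which goes against a loss of the transcript. The files do not say where the probe lies relative to the deleted part, so it does not check the genotype labels, and each library below is taken as labelled. Defining markers of the terminal preparation were present, since 5 of 6 synaptic terminal genes on the array passed the filter, but so did 10 of 10 astrocyte, 7 of 7 oligodendrocyte and 10 of 10 microglial genes. In such bulk RNA, fewer cells or terminals of a kind and less RNA in each cannot be told apart.

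Detection differed among the channel genes. Above background on all 50 arrays were 21 of the 64, 45 were above it on at least 9 arrays and entered the tests, and 14 were above it on only 1 to 4 arrays. By class, 17 of 29 Kv, 8 of 9 Kir, 7 of 10 K2P, 5 of 6 calcium-activated and 8 of 10 modifier genes were tested. Among the 9 Kv genes seen on every array were Kcna2, Kcnc4, Kcnd2, Kcnf1, Kcng4, Kcnh1, Kcnh2 and Kcnh3. The Kir genes seen on every array were Kcnj4 and Kcnj16, the K2P genes Kcnk1, Kcnk2 and Kcnk6, and the calcium-activated genes Kcnma1, the pore of the large-conductance BK channel, and Kcnn1, a small-conductance channel. The 5 modifiers seen on every array were Kcnab1, Kcnab2, Kcnip2, Kcnip3 and Kcnmb4.

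The 19 genes that were seen too rarely to test were 12 Kv genes (among them Kcna1, Kcna3, Kcna4, Kcna5, Kcna6, Kcna7, Kcng3, Kcnh7, Kcnq1, Kcns1 and Kcns2), Kcnj2, Kcnk5, Kcnk9, Kcnk15, Kcnn3, Kcne1 and Kcne3. Kcna1, an axonal Shaker-type Kv channel, was above background on 5 arrays, of which 3 were high-dose knockouts and 0 low-dose knockouts. Kcna4, which forms an inactivating Shaker-type channel, was above it on 7 arrays. Kcnk9, an acid-sensitive K2P channel, was above it on 4 arrays, and Kcnn3 on 1. A dim probe gives no evidence that the transcript was missing, and Kcnb2, Kcnc2, Kcnj10 and Kcnj11 were not analysed here.

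**Figure D1:**
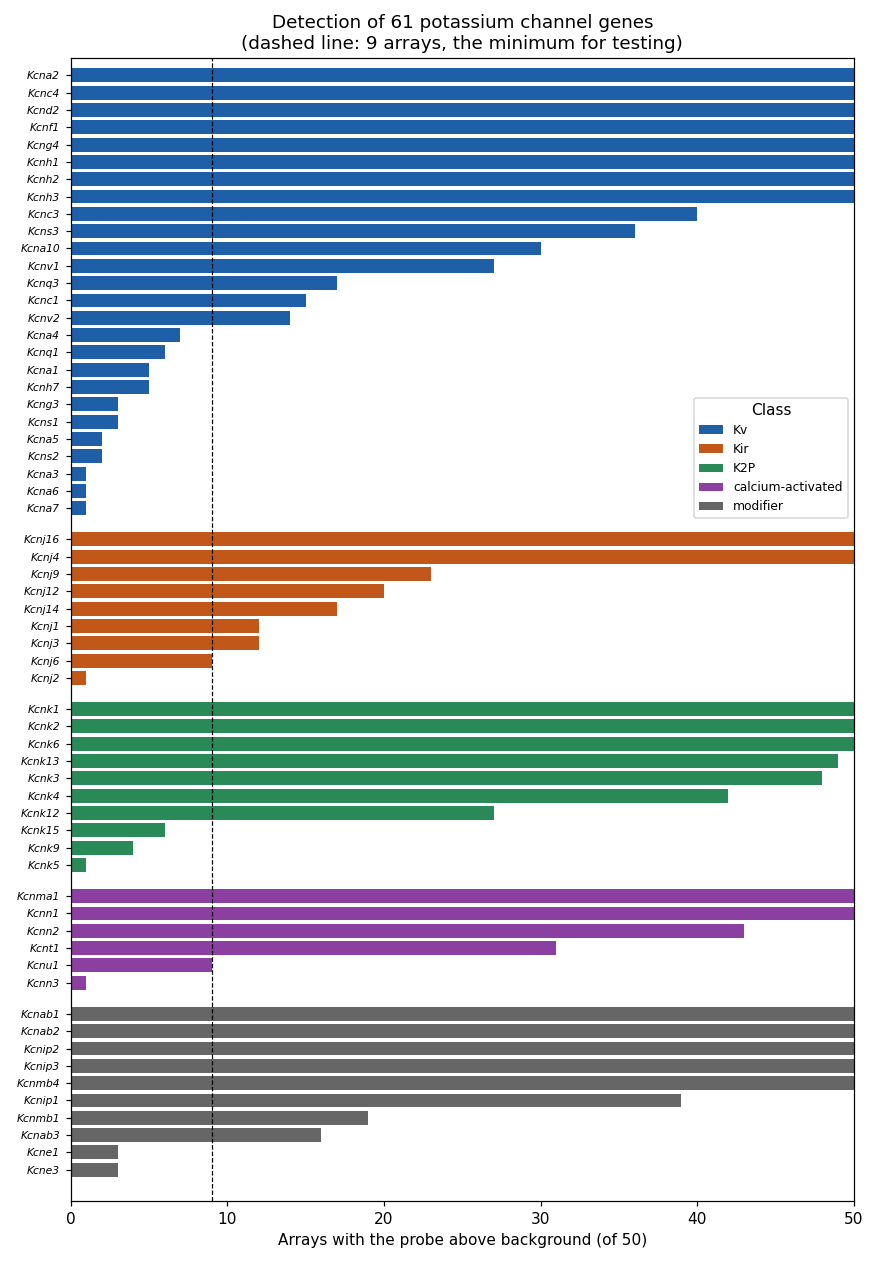
Number of arrays, of 50, on which the chosen probe of each of 61 potassium channel genes was above background, with bars coloured by class and the dashed line at 9 arrays. The Kv genes drawn split into 8 seen on every array and 11 to the left of the line, whereas 8 of the 9 Kir genes reach the line and only 2 of them were seen on every array.

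The first comparison asked how the channel genes differ between Sod2 knockout and wild-type terminals at the low dose. Of the 45 tested genes, 9 were lower and 1 was higher in low-dose knockouts (limma, Benjamini-Hochberg adjusted p under 0.05 over all 13476 tested probes, as for every call below). That is 22.2% of the channel genes, beside 20.8% of all probes. By direction, 10.1% of all probes fell and 10.8% rose. The median difference of the 45 genes was −0.11 on the log2 scale, and 33 of them lay below zero, while all tested probes had a median of −0.003 with 50.8% below zero. Dim genes can enter the tests through the group in which they are brighter, so these counts are a description. The genes that fell were 4 Kv genes (among them Kcna2, Kcnf1 and Kcnv1), the inward rectifier Kcnj12, the K2P gene Kcnk2, and the modifiers Kcnab1, Kcnab2 and Kcnmb4, while the modifier Kcnip3 rose. None of the 5 tested pore genes of the calcium-activated class, in which the sodium-activated Kcnt1 is counted, was called (limma). Of these, 1 was at an unadjusted p under 0.05.

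Kcnmb4, the beta subunit of neuronal BK channels, had the smallest p of the channel genes. Its log2 level was 7.51, 7.88 and 8.14 (lowest, median, highest) in low-dose knockouts, against 8.27, 8.42 and 8.76 in low-dose wild types. By this chosen probe all 10 low-dose knockouts lay below all 11 low-dose wild types. The fitted difference was −0.58 ± 0.0729 (log2, SE; adjusted p = 4.66e-08 in limma), and knockouts were lower on each of the 6 chips that held both groups, with differences of −0.86 to −0.28. By its other tested probes the groups overlapped. With these, 6 and 1 of 10 knockouts lay below every wild type, and knockouts were lower on 6 and 4 of 6 chips. The pore gene of the same channel, Kcnma1, had medians of 6.45 in low-dose knockouts and 6.81 in low-dose wild types and was not called, with a difference of −0.17 and an interval of −0.55 to 0.22.

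Kcnk2, a TREK-type K2P channel that answers to stretch, lipids and acid, was the next. Levels were 6.28, 6.7 and 6.91 in low-dose knockouts and 6.73, 7.12 and 7.63 in low-dose wild types. The groups overlapped, but 10 of 10 knockouts lay below the wild-type mean and 6 below every wild type. The difference was −0.44 ± 0.079 (adjusted p = 3.28e-05 in limma), with the same sign on 6 of 6 chips.

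By the chosen probes, 2 of the 3 tested Kv beta subunit genes were lower. These subunits are cytoplasmic proteins with an aldo-keto reductase fold that bind Shaker-type channels. Kcnab2 had levels of 9.58, 10.04 and 11.02 in low-dose knockouts and 10.15, 10.7 and 11.2 in low-dose wild types. It fell by 0.53 ± 0.139 (log2, SE; adjusted p = 0.00407 in limma), and 7 of 10 knockouts lay below every wild type, although 1 of 6 chips had the opposite sign. Kcnab1 fell by 0.33 ± 0.0932 (log2, SE; adjusted p = 0.00749 in limma), with levels of 5.69, 6.05 and 6.23 in low-dose knockouts and 6.01, 6.43 and 6.71 in low-dose wild types. Its second probe was not called, at −0.07 ± 0.0813 (adjusted p = 0.611 in limma). For Kcnab3 the difference was 0.06 and was not called. Of the Shaker-type pore genes that these subunits accompany, Kcna2 ran from 6.16 through a median of 6.55 to 7.25 in low-dose knockouts and from 6.64 through 6.81 to 7.41 in low-dose wild types. It fell by 0.38 ± 0.129 (log2, SE; adjusted p = 0.0275 in limma), a call that was lost under 5 of the 11 other settings tried.

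Lower too were the silent Kv subunits Kcnf1 and Kcnv1, which form no channel alone but join other Kv subunits. Kcnf1 had levels of 5.7, 6.4 and 7.66 in low-dose knockouts and 6.32, 7.13 and 8.03 in low-dose wild types, a difference of −0.70 ± 0.217 (adjusted p = 0.0154 in limma). Both groups spread widely and overlapped, with 5 of 10 knockouts below every wild type. Kcnv1 was dim, above background in 2 of 10 low-dose knockouts and 6 of 11 low-dose wild types, and its difference was −0.48 ± 0.15 (adjusted p = 0.0168 in limma). So near background the size depends on the correction, and it was −0.25 without background correction and −0.24 with an offset of 50. The other tested silent subunits, Kcng4, Kcns3 and Kcnv2, were not called.

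Kcnj12, a strong inward rectifier, was above background in 0 of 10 low-dose knockouts and 3 of 11 low-dose wild types. Measured means were 4.68 in low-dose knockouts and 5.05 in low-dose wild types (adjusted p = 0.0321 in limma). Both lie below 5.21, the mean of the lowest level above background on each low-dose knockout array, so no fold is given. The call was lost under 6 of the 10 other settings tried. Kcnj4, another strong inward rectifier of forebrain neurons, had a difference of −0.46 (−0.95 to 0.03) that was not called. The G protein-gated Kir subunits Kcnj3, Kcnj6 and Kcnj9, which carry slow inhibitory currents, were not called either, at −0.02, 0.06 and −0.20. Kcnj16, a Kir subunit of glia and kidney epithelium, differed by 0.15 with an interval of −0.21 to 0.52.

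Kcnip3, a calcium-binding partner of Kv4-type channels also known as DREAM or calsenilin, was the only channel gene called higher. Its levels were 8.07, 8.31 and 8.66 in low-dose knockouts and 7.7, 8.09 and 8.34 in low-dose wild types. The groups overlapped, as 4 of 10 knockouts exceeded every wild type while all 10 exceeded the mean of the wild types. The difference was 0.37 ± 0.0911 (adjusted p = 0.00226 in limma). Kcnd2, the Kv4-type pore that it binds, stood at −0.09 (−0.35 to 0.17) and was not called, nor were the related sensors Kcnip1 and Kcnip2 at 0.11 and −0.14.

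**Figure D2:**
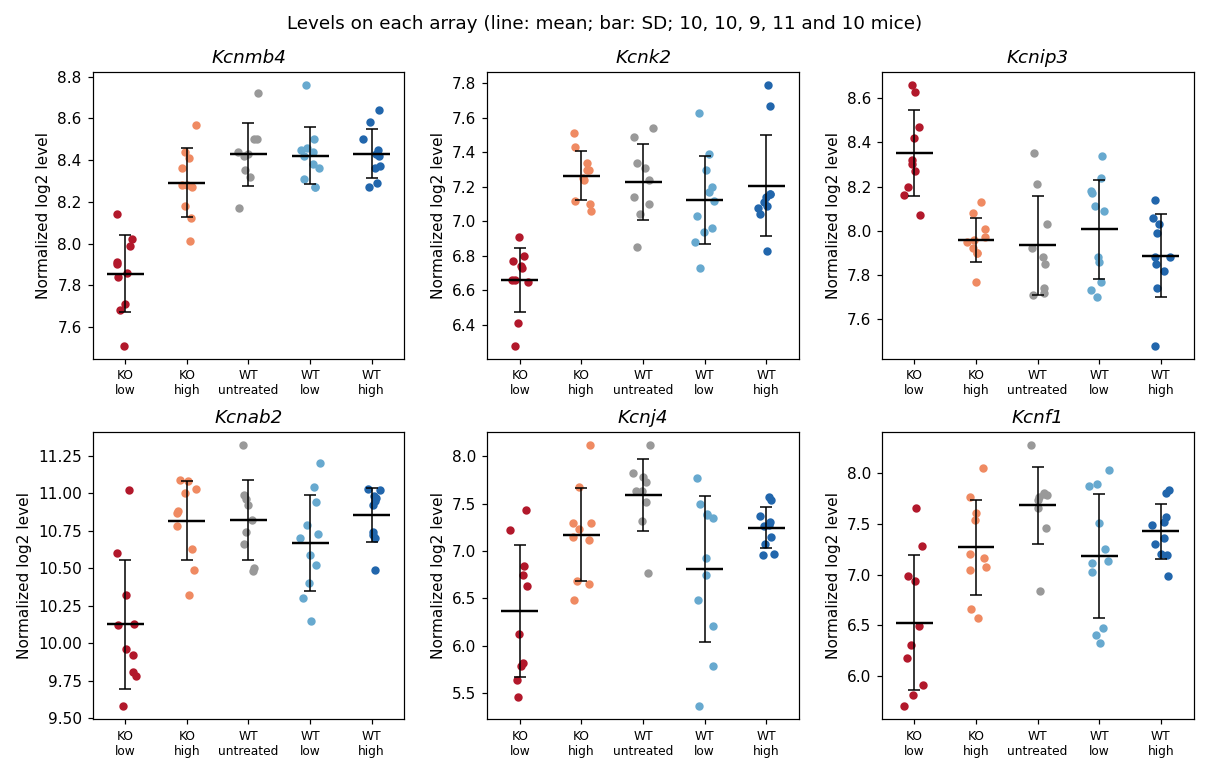
Normalized log2 level (vertical axes) of 6 potassium channel genes on each array, by group, with a point per mouse, a line at the mean and a bar for the SD. For the chosen probe of Kcnmb4 the low-dose knockouts, with a highest value of 8.14, lie below all low-dose wild types, which start at 8.27, whereas for Kcnj4 and Kcnf1 the groups overlap widely.

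At an unadjusted p under 0.05 were 16 of the 45 channel genes in this comparison, beside 32% of all probes. Of these, 6 did not pass the adjustment, all with lower estimates. They were Kcnt1, a sodium-activated channel of the Slo family (−0.39, adjusted p = 0.0519 in limma), Kcnc4 (−0.34, 0.0679), Kcnh3 (−0.37, 0.0972), Kcnj9 (−0.20, 0.108), Kcnk3 (−0.24, 0.138) and Kcnk12 (−0.28, 0.149). Kcnk1, a K2P channel, stood at 0.07 (−0.11 to 0.24). Kcnn1 and Kcnn2, the small-conductance channels that carry afterhyperpolarizations, stood at −0.11 (−0.26 to 0.04) and 0.09 (−0.18 to 0.36).

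Genes that bind, anchor or regulate these channels, or carry a related current, were counted from a list of 30 partners, of which 25 were on the array and 19 were tested. In low-dose knockouts 5 fell and 0 rose against low-dose wild types, beside 10.1% of all probes that fell and 10.8% that rose, with a median difference of −0.20. They were Stx1a, the syntaxin of the release machinery, at −0.66 ± 0.0816 (log2, SE; adjusted p = 3.84e-08 in limma), and Rgs4, which speeds G protein turnover, at −0.85 ± 0.202 (adjusted p = 0.00158). Also lower were Dlg4, the scaffold PSD-95, at −0.51 (adjusted p = 0.00363), Hcn2, a hyperpolarization-activated cation channel, at −0.57 (adjusted p = 0.0206), and the calmodulin gene Calm3 at −0.40 (adjusted p = 0.000106). The Kv4 partners Dpp6 and Dpp10, and Cntnap2, which places Kv1 channels along axons, were not called at −0.30, −0.18 and −0.30.

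Markers of neurons and of other cell types were called in the same comparison, in which 10.1% of all probes fell and 10.8% rose. Of 6 tested glutamatergic neuron genes 4 fell and 0 rose, with a median difference of −0.42, and 2 further listed genes on the array, Neurod6 among them, did not pass the filter. Their summed level ran from 4280 to 7499 in low-dose knockouts and from 5425 to 10330 in low-dose wild types. Of 5 tested synaptic terminal genes 2 fell, with sums of 3955 to 13250 in low-dose knockouts and 4183 to 15230 in low-dose wild types. Of 3 tested parvalbumin interneuron genes 1 fell, Pvalb, by 0.66 on the log2 scale (adjusted p = 0.00168 in limma), with sums of 404.4 to 629.2 in low-dose knockouts and 477 to 857.6 in low-dose wild types. Other lists had medians of −0.14 to 0, with 2 of 10 astrocyte genes rising and 3 falling, and 2 of 7 oligodendrocyte and 2 of 10 microglial genes falling. Of 4 oligodendrocyte precursor genes 1 fell (Gpr17, −0.73, adjusted p = 8.04e-05 in limma). Of 6 endothelial and mural genes 1 fell (Vtn, −0.70, 0.000204), as did 1 of 5 choroid plexus and meningeal genes (Igf2, −0.63, 5.02e-05). The part of all these markers in the channel gene differences was not tested.

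At the high dose 0 of the 45 channel genes were called between knockouts and wild types (limma), beside 0.579% of all probes. At an unadjusted p under 0.05 there were 3 channel genes, beside 11.2% of all probes. The 3 were Kcna2, at −0.43 ± 0.128 (adjusted p = 0.107 in limma), Kcnv1, at −0.33 ± 0.149 (adjusted p = 0.373), and Kcnip1, at 0.26 ± 0.111 (adjusted p = 0.328). Kcna2 levels were 5.87, 6.61 and 7.1 in high-dose knockouts and 6.52, 7.04 and 7.36 in high-dose wild types. Its estimates were thus below zero at both doses, with an interaction of −0.05 (−0.41 to 0.31).

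Whether the genotype difference itself depended on dose was asked by the interaction, the difference at the high dose minus that at the low dose. Kcnk2 and Kcnmb4 passed, 2 of 45 or 4.44%, beside 2.95% of all probes in either direction and 0.853% of all probes higher. For Kcnk2 the interaction was 0.57 ± 0.11 (adjusted p = 0.00145 in limma), made of 0.12 ± 0.0784 at the high dose and −0.44 ± 0.079 at the low dose. For Kcnmb4 it was 0.46 ± 0.102 (adjusted p = 0.0059 in limma), made of −0.12 ± 0.0724 at the high dose and −0.58 ± 0.0729 at the low dose. At the high dose Kcnmb4 levels were 8.01, 8.28 and 8.57 in knockouts and 8.27, 8.43 and 8.64 in wild types, so that the groups overlapped. Kcnk2 levels there were 7.06, 7.27 and 7.51 in knockouts and 6.83, 7.12 and 7.79 in wild types. Both calls ended under median scaling (adjusted p = 0.0612 for Kcnk2 and 0.227 for Kcnmb4 in limma), and that of Kcnmb4 also with either of its other probes (adjusted p = 0.188 and 0.727). No other channel gene passed this test.

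The high dose over the low dose within knockouts gave the most calls among the channel genes. In high-dose knockouts 15 rose and 1 fell against low-dose knockouts, 35.6% of 45, beside 19.9% of all probes. Of all probes 9.31% rose and 10.6% fell, and the median difference was 0.11 for the channel genes and −0.004 for all probes. This comparison shares its low-dose knockout arrays with the genotype comparison at the low dose, so opposite signs in the pair are not separate evidence. The genes that rose were 6 of 17 Kv, 2 of 8 Kir, 3 of 7 K2P and 3 of 8 modifier genes, and 1 of the 5 genes in the calcium-activated class. That 1 was Kcnt1, a sodium-activated channel placed in this class with the Slo family. The gene that fell was Kcnip3.

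Kcnk2 had the smallest p here, with levels of 7.06, 7.27 and 7.51 in high-dose knockouts against 6.28, 6.7 and 6.91 in low-dose knockouts. No high-dose knockout was as low as any low-dose knockout. The difference was 0.61 ± 0.0776 (adjusted p = 1.19e-07 in limma) and held its sign on 6 of 6 chips. Between high-dose and low-dose wild types the difference was 0.04 ± 0.0786, which did not pass (adjusted p = 1). The acid-sensitive Kcnk3 rose by 0.35 (adjusted p = 0.0204 in limma), and Kcnk12, a K2P subunit of the THIK type, by 0.40 (adjusted p = 0.028), with a signal above background in 7 of 10 high-dose and 3 of 10 low-dose knockouts. Without background correction both differences were 0.22.

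Among the modifiers, Kcnmb4 was higher by 0.43 ± 0.0716 (adjusted p = 2.17e-05 in limma), Kcnab2 by 0.68 ± 0.137 (adjusted p = 0.000284) and Kcnab1 by 0.41 ± 0.0916 (adjusted p = 0.000892). A second Kcnab1 probe was not called here, at 0.07 ± 0.0799 (adjusted p = 0.622 in limma). Kcnab2 levels were 10.32, 10.88 and 11.09 in high-dose knockouts and 9.58, 10.04 and 11.02 in low-dose knockouts, where 1 low-dose mouse reached the upper part of the high-dose range. Kcnip3 fell by 0.40 on the log2 scale (adjusted p = 0.0011 in limma), with levels of 7.77, 7.96 and 8.13 in high-dose knockouts and 8.07, 8.31 and 8.66 in low-dose knockouts. The Kcnip3 call was lost under median scaling (adjusted p = 0.0906 in limma).

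Kcnh1, an ether-a-go-go channel of forebrain neurons, had the largest estimate of the channel genes, 1.08 ± 0.26 (adjusted p = 0.00224 in limma). Levels were 6.72, 7.74 and 8.33 in high-dose knockouts and 5.63, 6.74 and 7.72 in low-dose knockouts. Within groups it also varied most of the 45 genes, with a residual SD of 0.556 after removal of group and chip means. In wild types its estimate for the same dose step was 0.62 ± 0.263 and did not pass (adjusted p = 1 in limma). Its relative Kcnh3 rose by 0.49 (adjusted p = 0.0222 in limma), while Kcnh2, a further ether-a-go-go family member, stood at 0.11 (−0.10 to 0.31) by its chosen probe. Another Kcnh2 probe, above background in 6 high-dose and 1 low-dose knockouts, was called at 0.44 ± 0.142 (adjusted p = 0.0228 in limma).

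Other Kv genes that rose included Kcnf1, by 0.78 ± 0.213 (adjusted p = 0.00672 in limma), Kcnd2, by 0.43 ± 0.127 (adjusted p = 0.0127), and Kcnq3, by 0.29 ± 0.0952 (adjusted p = 0.0233). Kcnd2, which carries the transient A-type current, had levels of 5.35, 6.38 and 7.15 in high-dose knockouts and 5.71, 5.96 and 6.23 in low-dose knockouts. High-dose knockouts thus reached both below and above the low-dose range. Kcnq3, an M-current subunit, was above background in only 4 high-dose and 1 low-dose knockouts, with means of 5.16 in high-dose and 4.88 in low-dose knockouts. Its difference was 0.15 without background correction and 0.14 with an offset of 50.

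Kcnj4 levels were 6.48, 7.19 and 8.12 in high-dose knockouts and 5.46, 6.38 and 7.43 in low-dose knockouts, a difference of 0.83 ± 0.24 (adjusted p = 0.0106 in limma). Kcnj12 was above background in 6 of 10 high-dose and 0 of 10 low-dose knockouts. Its measured means were 5.22 in high-dose knockouts and 4.68 in low-dose knockouts (adjusted p = 0.000181 in limma). The lowest level above background on each low-dose array had a mean of 5.21, and against it Kcnj12 was only at least 1.01-fold higher. The p belongs to the measured values and not to this bound. Kcnt1 rose by 0.43 ± 0.143 (adjusted p = 0.0258 in limma) and was above background in 7 of 10 high-dose and 2 of 10 low-dose knockouts. Without background correction the difference of Kcnt1 was 0.23. Kcnma1, Kcnn1 and Kcnn2 were not called, at 0.19, 0.09 and −0.01.

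**Figure D3:**
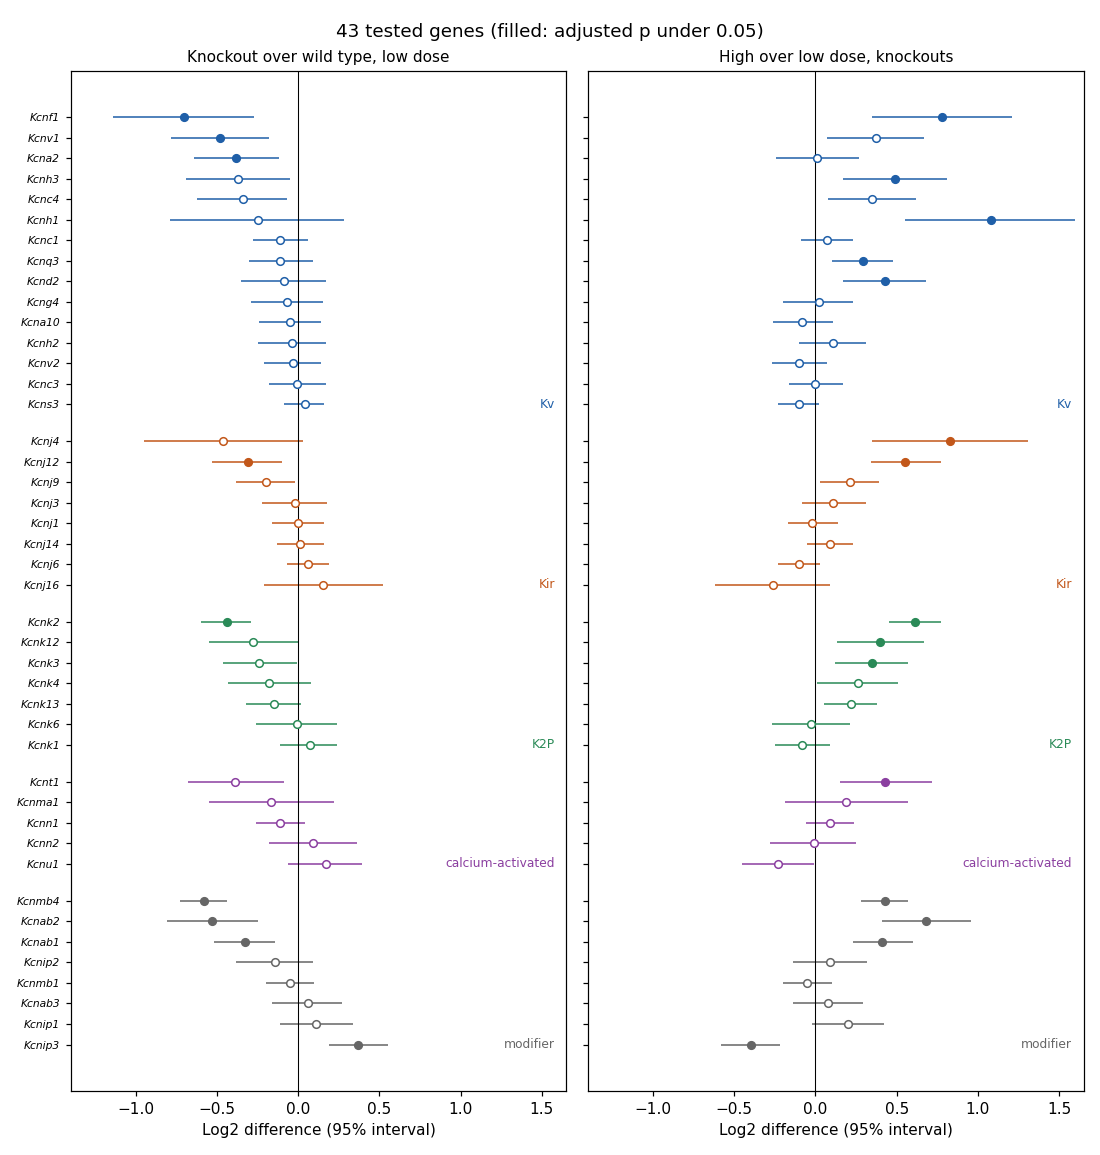
Log2 difference with its 95% interval for 43 tested potassium channel genes, grouped and coloured by class, for low-dose mice, knockout over wild type (left) and in high-dose over low-dose knockouts (right), with filled points for adjusted p under 0.05. On the left 8 filled points lie below zero and Kcnip3 alone above it, and on the right 14 lie above zero and Kcnip3 alone below it.

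The partner genes had 8 rises and 1 fall among 19 in high-dose over low-dose knockouts, beside 9.31% of all probes that rose and 10.6% that fell, with a median difference of 0.32. Rgs4 was higher by 0.93 ± 0.198 (adjusted p = 0.00061 in limma) and Stx1a by 0.54 ± 0.0802 (adjusted p = 2.4e-06), while Rgs7, another regulator of G protein signalling, fell by 0.23 on the log2 scale (adjusted p = 0.0228). Amigo1, an adhesion protein of neurons, rose by 0.62 (adjusted p = 0.0047 in limma). In the interaction 1 partner passed, Stx1a, at 0.45 ± 0.114 (adjusted p = 0.0195 in limma). Markers of neurons and of other cell types were called here too, beside the same shares of all probes. Of the glutamatergic genes 3 of 6 rose, with sums of 6089 to 9570 in high-dose and 4280 to 7499 in low-dose knockouts, and of the synaptic terminal genes 4 of 5 rose, with sums of 6557 to 17380 in high-dose and 3955 to 13250 in low-dose knockouts. All 3 tested parvalbumin interneuron genes rose, with sums of 569.5 to 766.4 in high-dose and 404.4 to 629.2 in low-dose knockouts. Of 10 astrocyte genes 2 rose (Gfap and S100b) and 3 fell (Aqp4, Aldh1l1 and Gja1), with sums of 21160 to 26800 in high-dose and 19350 to 34750 in low-dose knockouts. Single genes rose among 7 oligodendrocyte (Opalin, by 1.27, adjusted p = 6.54e-06 in limma), 4 precursor (Gpr17, by 0.64, adjusted p = 0.000534) and 6 endothelial and mural genes (Vtn), with sums of 22640 to 34010, 716.7 to 1247 and 243.1 to 305.8 in high-dose knockouts, against 12040 to 33680, 638.2 to 916.4 and 203.8 to 305.4 in low-dose knockouts. The 10 microglial and 5 choroid plexus and meningeal genes had medians of −0.11 and 0.11, with 0 called (limma). The part of these markers in the channel gene differences was not tested.

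In wild types no channel gene was called in any of the 3 dose comparisons (limma), and the share of all probes called was 0% in each. At an unadjusted p under 0.05 there were 4 of the 45 channel genes for high over low dose, beside 3.91% of all probes. There were 11 for low dose over untreated, beside 13.6% of all probes, and 1 for high dose over untreated, beside 6.75%. Without an untreated knockout group, an effect of the compound on knockouts cannot be set against no treatment.

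The 11 genes of low-dose over untreated wild types all had lower estimates. Kcnj4 was at −0.76 ± 0.245 (adjusted p = 0.197 in limma), with levels of 5.36, 6.93 and 7.77 in low-dose and 6.77, 7.64 and 8.12 in untreated wild types. Kcnc4, a fast Kv channel of the Shaw type, was at −0.41 ± 0.137 (adjusted p = 0.201), with means of 9.25 in low-dose and 9.64 in untreated wild types. A second Kcnc4 probe pointed the other way here, at 0.13 ± 0.116, and in high-dose over low-dose knockouts, at −0.20 ± 0.114 against 0.35 ± 0.134 for the chosen probe, with none of these called. The other 9 were Kcnf1, Kcnh2, Kcnh3, Kcnq3, Kcnj12, Kcnk4, Kcnt1, Kcnab1 and Kcnab3, between −0.46 and −0.20. For Kcnk2 and Kcnmb4 the same estimates were −0.04 (−0.20 to 0.12) and 0.02 (−0.13 to 0.16). Summed glutamatergic neuron genes had a median of 8330 in low-dose and 9891 in untreated wild types, and synaptic terminal genes 8447 and 13280. Astrocyte genes had medians of 26000 in low-dose and 22400 in untreated wild types, and microglial genes 2976 and 2210. The part of these markers in the channel gene estimates was not tested.

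The 18 genes called in any comparison differed in how their levels varied among mice of the same group. After removal of group and chip means, each was set against the mean of the 6 glutamatergic neuron genes and against the number of probes above background, 36 relations over 50 arrays, with p from 100000 permutations adjusted over the 36. Removing these means leaves 39 residual degrees of freedom, but the permutations shuffled all 50 values, which can make these p too small. The relations were not computed for other probes, so the counts that pass have no share of all probes beside them. Nor were they computed for the other marker lists, so they do not show whether a relation is particular to glutamatergic neurons. With the neuron genes, Kcnt1 had a Pearson's r of 0.85 (Spearman's rho 0.85), Kcnf1 one of 0.84 (0.80), Kcnj4 0.84 (0.82) and Kcnh3 0.83 (0.80), each with an adjusted permutation p of 5.14e-05 for r, whose raw p of 1e-05 is the smallest these permutations can give. Leaving out the 2 arrays farthest from the median of the neuron genes left these at 0.80 to 0.83. Another 8 genes passed. Those reported here, at an r of 0.37 to 0.60, were Kcnk12, Kcnv1, Kcnh1, Kcnk3, Kcnd2, Kcnq3 and Kcnj12, with adjusted permutation p of 5.14e-05 to 0.0189 and an r of 0.35 to 0.52 without the 2 farthest arrays.

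The other 6 genes did not pass against the neuron genes. They were Kcnmb4 (r = 0.19, rho = 0.22, adjusted permutation p = 0.298 for r), Kcna2 (0.18, 0.17, 0.298), Kcnab2 (0.16, 0.14, 0.371), Kcnab1 (0.15, 0.15, 0.379), Kcnip3 (0.14, 0.15, 0.399) and Kcnk2 (0.02, 0.03, 0.872). The 4 modifiers called in any comparison were all among them. Against the number of probes above background, Kcnt1 had an r of 0.56 (rho 0.57, adjusted permutation p = 0.00018) and Kcnk12 one of 0.55 (rho 0.64, 0.0002). Kcnip3 had an r of 0.33 (rho 0.27, adjusted permutation p = 0.0349 for r), which was 0.20 without the 2 farthest arrays. For Kcnk2 and Kcnmb4 the values against that number were −0.16 and −0.07. Among the genes themselves, residual levels of Kcnf1 and Kcnt1 had an r of 0.86, those of Kcnf1 and Kcnj4 one of 0.84, and those of Kcnj4 and Kcnt1 one of 0.80, given as descriptions over arrays that share normalization.

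**Figure D4:**
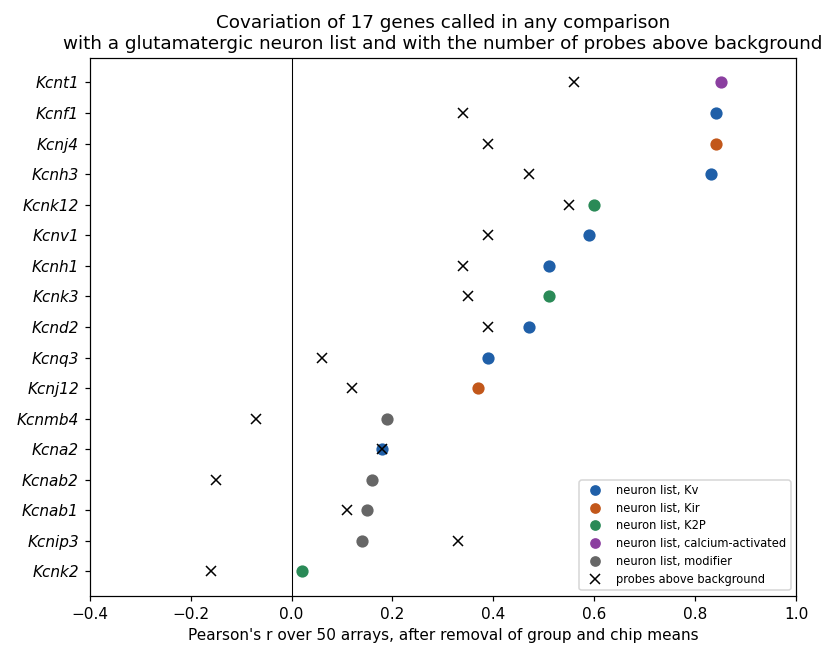
Pearson's r over 50 arrays, after removal of group and chip means, between each of 17 genes called in any comparison and the mean of 6 glutamatergic neuron genes (circles, coloured by class) or the number of probes above background (crosses). Kcnt1, Kcnf1, Kcnj4 and Kcnh3 stand at 0.83 to 0.85 with the neuron genes, and Kcnk2 at 0.02.

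Of the 64 genes, 23 had more than 1 probe, and other probes could be tested for 7 of them. Kcnmb4 was lower in low-dose knockouts by all 3 of its tested probes, at −0.58, −0.45 (adjusted p = 0.000279 in limma) and −0.27 (adjusted p = 0.0242). Its interaction passed with the brightest probe only, the others giving 0.32 (adjusted p = 0.188 in limma) and 0.11 (adjusted p = 0.727). A second Kcnab1 probe gave −0.07 ± 0.0813 (adjusted p = 0.611 in limma) against the −0.33 of the chosen probe, with levels of 5.73, 6.08 and 6.41 in low-dose knockouts and 5.96, 6.15 and 6.52 in low-dose wild types. The call of Kcnab1 thus held for 1 of its 2 tested probes. For Kcnh2 the chosen probe stood at −0.04 and a further probe at −0.03, but another, above background in 1 low-dose knockout and 6 low-dose wild types, gave −0.40 ± 0.145 (adjusted p = 0.0402 in limma).

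Kcnc1, a fast Kv channel of the Shaw type found in fast-spiking neurons, was dim by the probe that carries its symbol, above background on 15 arrays, and was not called at −0.11. A probe listed under an older symbol, C230009H10Rik, which the mouse reference table gives as a synonym of Kcnc1, was above background on all 50 arrays. By that probe levels were 6.69, 7.06 and 8.03 in low-dose knockouts and 7.01, 7.51 and 8.25 in low-dose wild types, a difference of −0.50 ± 0.156 (adjusted p = 0.0172 in limma). High-dose knockouts exceeded low-dose knockouts by 0.59 ± 0.153 (adjusted p = 0.00421 in limma). This probe is not counted among the 45, and the position of the probes in the transcript is not given in the files.

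**Figure D5:**
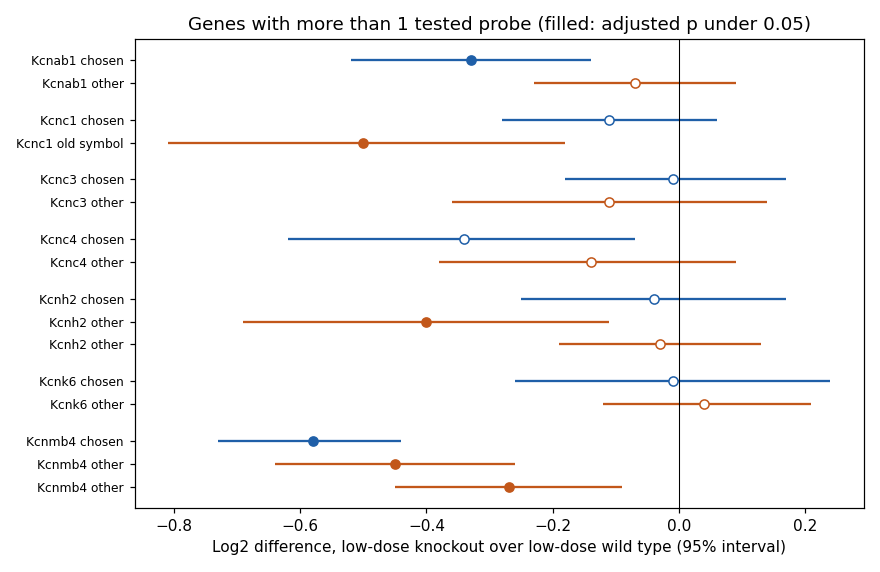
Log2 difference with its 95% interval, knockout over wild type at the low dose, for genes with more than 1 tested probe, the chosen probe in blue and others in orange, filled for adjusted p under 0.05. The 3 Kcnmb4 probes lie at −0.58, −0.45 and −0.27, whereas the probes of Kcnab1, Kcnc1 and Kcnh2 differ in whether they pass.

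Upstream regions of some called channel genes are shown so that their sequence can be set beside their values. RefSeq windows on GRCm38.p6 were at hand for 44 of the 64 genes and 12 of the 18 called ones. The 5 below are the 250 bases before the most upstream listed start, 5′ to 3′, of both genes called in the interaction, a call that ended under median scaling (Kcnmb4, Kcnk2), the gene that moved the opposite way (Kcnip3), and a Kv and a Kir gene that followed the neuron genes (Kcnf1, Kcnj4). Capitals mark matches on either strand to any of 7 motifs, and all matches in these windows are GC boxes (GGGCGG).
Kcnmb4, chr10:116473524-116473773, minus strand: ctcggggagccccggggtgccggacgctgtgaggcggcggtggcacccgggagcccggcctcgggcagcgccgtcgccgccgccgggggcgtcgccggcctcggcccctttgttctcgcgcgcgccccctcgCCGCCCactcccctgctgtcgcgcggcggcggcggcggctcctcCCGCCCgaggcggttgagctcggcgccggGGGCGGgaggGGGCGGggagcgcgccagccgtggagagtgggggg
Kcnk2, chr1:189402274-189402523, minus strand: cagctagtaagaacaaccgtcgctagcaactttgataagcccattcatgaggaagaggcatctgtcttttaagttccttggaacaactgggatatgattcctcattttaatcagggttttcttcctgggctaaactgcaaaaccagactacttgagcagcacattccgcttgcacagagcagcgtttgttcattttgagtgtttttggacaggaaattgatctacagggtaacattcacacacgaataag
Kcnip3, chr2:127522095-127522344, minus strand: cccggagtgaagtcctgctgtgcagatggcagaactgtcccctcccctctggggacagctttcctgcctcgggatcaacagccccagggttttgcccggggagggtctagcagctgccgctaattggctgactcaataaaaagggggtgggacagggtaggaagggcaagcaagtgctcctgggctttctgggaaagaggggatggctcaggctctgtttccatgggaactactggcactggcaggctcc
Kcnf1, chr12:17176889-17177138, minus strand: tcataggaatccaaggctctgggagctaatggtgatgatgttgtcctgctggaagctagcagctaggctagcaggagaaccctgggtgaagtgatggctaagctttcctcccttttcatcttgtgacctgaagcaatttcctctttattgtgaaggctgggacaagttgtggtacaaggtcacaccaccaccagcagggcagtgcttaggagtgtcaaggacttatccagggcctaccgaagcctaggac
Kcnj4, chr15:79505242-79505491, minus strand: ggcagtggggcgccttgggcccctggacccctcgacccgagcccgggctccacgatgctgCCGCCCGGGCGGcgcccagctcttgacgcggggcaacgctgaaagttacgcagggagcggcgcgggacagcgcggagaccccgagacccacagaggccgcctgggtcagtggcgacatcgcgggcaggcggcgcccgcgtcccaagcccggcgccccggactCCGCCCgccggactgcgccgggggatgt

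Kcnmb4 held 4 GC boxes and Kcnj4 held 3, while the windows shown for Kcnk2, Kcnip3 and Kcnf1 held no match to any of the motifs. Windows at other starts of these genes, not shown, held a GC box and an EGR site (Kcnk2) and a GC box (Kcnip3). The others searched were CRE (TGACGTCA), an antioxidant response core (TGACNNNGC), the amino acid response core (TGATGNAA), the E-box (CACGTG), an EGR site (GCGGGGGCG) and a short NRSE stretch (TTCAGCACC). Of the 12 called genes with a window, 9 held a GC box in at least 1 of their windows, 3 an antioxidant response core, 1 an amino acid response core, 1 an E-box, 1 an EGR site, and 0 a CRE or NRSE stretch. Among all 32851 windows of this length, 32.7% held a GC box, 10.2% an antioxidant response core, 3.45% an amino acid response core, 6.02% an E-box, 2.57% an EGR site, 1.55% a CRE and 0.301% the NRSE stretch. Genes with several starts have several windows, so the gene counts are not directly comparable with these shares. A match is a description of the letters and says nothing about binding.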

How the data were processed

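RNA from frontal cortex synaptosomes of 50 mice was extracted with Trizol, amplified in 1 round, biotin-labelled and hybridized to Illumina bead chips, per the labels. The deposited table holds the average bead signal (intensity) of 25697 probes per array, per the file headers, with neither negative controls nor detection p values. A second deposited table holds processed values on a log2 scale, with a normalization that the files and labels do not state. It served as an alternative, and 50 of 50 columns correlated best with their own signals (lowest r 0.999).

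Background was corrected with normexp on all probes (saddle, offset 16) in limma 3.58.1 (R 4.3.3), followed by quantile normalization and log2. A probe was above background where its signal exceeded the lower peak of the array's signals (48.34 to 70.73) by 1.645 SD, standing in for a detection p of 0.05. The 13476 probes above it on at least 9 arrays were fitted with 5 groups and 7 chips as fixed terms over all 50 arrays, and p values were adjusted by Benjamini-Hochberg within a contrast. The code was tested on simulated data. Genes named are all called ones and a fixed set of well-known members by role. The members, partner and marker lists were chosen with earlier results of these data known. The counts include 3 channel genes that are not reported here by name or drawn. Symbols were matched to RefSeq names (78 of 78). Alternatives were no or random chip term, no background correction, median scaling, cyclic loess, offset 50, no or a stricter filter, only the arrays of the contrast, leaving out 5 dim arrays, the processed values and another probe. The number of arrays limits the precision.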

Additional observations from a re-analysis of the deposited data

Results flagged for a closer look

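Kcnd2 in 1 untreated wild type (array 49) stood at 6.58 on the log2 scale, while the nearest of the other 8 mice was at 6.26, a gap that was large for the group's whole range. Chance gives such a gap in about 1 of 20 groups, and this was the only 1 of 76 combinations of gene and group examined. The genotype difference at the high dose minus that at the low dose passed its own test for Kcnk2, at 0.57 on the log2 scale, and for Kcnmb4, at 0.46.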

How the results depend on the processing

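Of the 28 calls on single channel genes, recomputed as 307 values under other settings, 276 kept direction and call, 31 kept direction without the call and 0 reversed. Median scaling in place of quantile normalization left 6 channel genes called for genotype at the low dose (10 as reported) and 0 for the interaction (2 as reported; Kcnk2 0.50, adjusted p = 0.0612, and Kcnmb4 0.41, adjusted p = 0.227). Using only the arrays of the contrast left 9 calls for dose in knockouts (16 as reported). Another probe of the gene gave 1 call for the interaction. The cause was not tested, except that fewer arrays entered the fit restricted to a contrast. In genotype at the low dose, Kcnj12 lost its call under 6 of 10 alternatives (adjusted p 0.00975 to 0.0785) and Kcna2 under 5 of 11 (0.0224 to 0.0805). Kcnip3 lost it under median scaling (0.0778), as it did its call for dose in knockouts (0.0906). Kcnk2 and Kcnmb4 kept their low-dose genotype call under all 11 and 12 alternatives. Kcnj12, Kcnq3, Kcnv1, Kcnt1 and Kcnk12 were near background on many arrays, which limits their values. The groups share no replicate numbers, so none served as a block beside the chip.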
